A study of Sus scrofa with 12 samples.

Results

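On arrays of differentiating pig fat-cell precursors, 1863 of 43221 probes met the limit for a rise from undifferentiated to day 4 control cells. Of these, 75 were chosen as members. Their rise was smaller when the cells had received siRNA against GPR124. The size of this fall varied. After loess normalization it was at least 1 on the log2 scale in 47 members, and 6 members were not called lower. In the Cy3 over Cy5 ratio of processed signals, siRNAs against F2RL2 and LGR4 left the members within 0.5 of control siRNA. They were chosen for this joint pattern. After loess normalization 71 members were still within 0.5 with F2RL2 siRNA and 72 with LGR4 siRNA. Across the members the median log2 ratio over the day 0 cells after loess normalization was 1.32 with control siRNA, 1.37 with F2RL2 siRNA, 1.18 with LGR4 siRNA and 0.17 with GPR124 siRNA. On the scale of processed signals that chose the members, the medians were 1.80, 1.97, 1.65 and 0.49. The median member thus kept 15.4% of its control log ratio with GPR124 siRNA on the loess scale and 23.4% on the scale of the choice. For 3 members the name "lost only with GPR124 siRNA" went against the signal of the transfected cells, which was lower by at least 1 on the log2 scale with each of the 3 targeting siRNAs. In 5 other members that signal was slightly higher with GPR124 siRNA than with control siRNA, by 0.006 to 0.27 on the log2 scale. The pattern of the choice was present in the transfected cells' signal alone in 40 of the 75. That signal carries a background offset that shrinks differences of dim spots, so this count can miss dim members. The files used here pair no probe with a gene, so members are given by probe identifier or by their place in an order, with no gene name, sequence or genomic position.

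Cells were subcutaneous preadipocytes of the pig, labelled female. They were transfected with AllStars Negative Control siRNA or with siRNA against F2RL2 (spelled R2RL2 in 1 label field), LGR4 or GPR124, and differentiated to day 4. Each of these 4 groups had 3 arrays, numbered as replicates in the labels. On every array Cy3 carried RNA of the transfected day 4 cells and Cy5 that of day 0 preadipocytes that had been neither transfected nor differentiated, with 400 ng of RNA per dye. Differentiation medium held 10% serum, insulin (5 µg/ml), dexamethasone (0.25 µM), biotin (33 µM), pantothenate (17 µM) and octanoate (5 mM) in all groups. Dyes were not swapped and the reference was untransfected, so differentiation, transfection and dye cannot be told apart in a ratio over the reference; the 4 groups share all of them. Whether the replicates came from separate cultures or pigs is not stated, so the p-values reflect array-to-array spread that could be purely technical. The targeting siRNAs were designed by SIGMA, and the labels do not say how many siRNAs were used per target.

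Preadipocytes are fibroblast-like cells that turn into fat-storing adipocytes when given insulin and a glucocorticoid. The change is driven by the transcription factors PPARG and CEBPA, which switch on genes for lipid uptake, lipid synthesis and lipid droplets, and Wnt signalling is known to restrain it. GPR124, also called ADGRA2, is an adhesion G-protein-coupled receptor that works with RECK as a co-receptor for certain Wnt ligands and is best known from blood vessels of the brain. LGR4 binds R-spondins and raises Wnt signalling, and F2RL2 is a protease-activated receptor of the thrombin receptor family. The targeted transcripts and adipocyte markers could not be looked up by name on these arrays, so neither the knockdown nor the cell type was checked here.

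Between 24720 and 29381 probes per array lay well above background in Cy3, and between 23594 and 32394 in Cy5. The GPR124 arrays had the lowest Cy5 counts, 23594 to 26485, against 30609 on LGR4 replicate 3 of the same slide. The arrays lay on 3 slides. Slide 1 held the control arrays and F2RL2 replicate 1, slide 2 held F2RL2 replicates 2 and 3 with LGR4 replicates 1 and 2, and slide 3 held LGR4 replicate 3 with all GPR124 arrays. The scanner software marked 154 to 335 spots as outliers on each array of slide 3, against 1 to 4 on the others, but only 1 such spot belonged to a member. No slide held both control and GPR124 arrays, so this comparison has no value within a slide. The slides are linked through the F2RL2 and LGR4 arrays, and values from a fit with slide as a block are given beside the result. LGR4 replicate 3 is the only array of another group on the GPR124 slide, and its values are given apart.

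Members were chosen from the scanner software's processed signals, as log2 of Cy3 over Cy5 minus the array's median over all probes that are no controls. Of 43221 probes, 27147 were well above background in Cy3 on all 3 control arrays. A mean control log ratio of at least 1, called induced here, was met by 1863 of these. The GPR124 mean was lower than that by at least 1 in 575 induced probes, or 30.9%. In 192 of the 575 the F2RL2 mean lay within 0.5 of control, and in 75 the LGR4 mean did too, which makes 4.03% of the induced probes. Of the remaining 500, 117 met the limit for F2RL2 siRNA alone, 61 for LGR4 siRNA alone and 322 for neither. The same limits with the siRNAs exchanged gave 7 probes lost only with F2RL2 siRNA and 31 lost only with LGR4 siRNA. These counts come from the limits themselves and have no test.

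On this scale the members' control means ran from 1.04 to 5.68 with a median of 1.80. Their GPR124 differences ran from -4.12 to -1.002 with a median of -1.23. The limit fell in a dense region. The member nearest to it had a difference of -1.002 and the nearest probe outside one of -0.98, and 33 members had differences above -1.2. At the F2RL2 limit the nearest probes inside and outside had absolute differences of 0.50 and 0.52, and at the LGR4 limit 0.49 and 0.50. The nearest control means were 1.04 inside and 1.00 outside. F2RL2 means were above control in 54 members, with a median difference of 0.15, and LGR4 means in 15, with a median of -0.21.

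All further log ratios were computed from the median spot signals, with background correction and loess normalization within each array, and tested with limma over all arrays and all probes kept. This is another processing of the same arrays, not an independent measurement, and every contrast among the 4 groups had served to choose the members. The counts that follow describe them and support nothing. All 75 members passed the filter on dim probes. The filter could not remove them, because the rule already asked for signal on the control arrays.

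With control siRNA, member log ratios ranged from 0.26 to 4.60, with quartiles of 0.73 and 1.79. The member median was 1.30, 1.33 and 1.31 on the 3 control arrays, and no member was at or under 0 on any of them. By limma with Benjamini-Hochberg adjustment, 75 members were called higher than the reference, at adjusted p-values up to 0.0117, where 28.6% of all probes were called higher. The members' control signal was high among induced probes in Cy3. Their median Cy3 level was 10.2 on the normalized log2 intensity scale, against 9.04 for the other 1788 induced probes, and the Cy5 levels were 7.70 and 7.53. The reference was well above background on all 3 control arrays for 62 members (82.7%, against 87.1% of the other induced probes) and on none for 7 members. For those 7 the reference has only an upper bound, which in 6 of them is the spot's own signal. Most members were thus transcripts already detected in day 0 preadipocytes.

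With GPR124 siRNA the median member kept a small part of its rise over the day 0 cells. Their group means ranged from -0.60 to 1.81 on the loess scale, with quartiles of -0.0038 and 0.43. On the scale of the rule the quartiles were 0.064 and 0.85, and the array medians were 0.53, 0.53 and 0.27. The member median was 0.23, 0.22 and 0.077 on the 3 GPR124 arrays, and 17, 19 and 29 members were at or under 0 there. Averaged over arrays, the member median was 0.18 ± 0.087 (SD, n = 3) with GPR124 siRNA and 1.31 ± 0.015 with control siRNA. The 2 groups of arrays do not overlap. In a bulk sample, fewer cells that express a transcript and less of it per cell cannot be told apart.

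The log2 difference from control ran from -3.56 to -0.06 over members, with a median of -1.28, while the median over all probes tested was 0.026. By limma, 69 of 75 members were called lower, where 16.9% of all probes were called lower with GPR124 siRNA. All 3 GPR124 arrays lay under all 3 control arrays for 69 members (21.7% of all probes) and under all 9 other arrays for 67 (11.9% of all probes). The 6 members not called had differences of -0.39 to -0.06 and adjusted p-values from 0.0964 to 0.593. With slide as a block in the fit, 49 members were called lower by limma, where 3.77% of all probes were, and the median member difference was -1.29.

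Loss of the induction was graded. In 19 members the GPR124 mean was below the reference, in 38 it lay between 0 and 0.5, in 11 between 0.5 and 1, and in 7 it was 1 or more. The 19 members below the reference had modest control means of 0.29 to 1.40, with medians of 1.13 with control siRNA and -0.15 with GPR124 siRNA. In 11 of them all 3 GPR124 arrays were below 0. The lowest was the member with the eighth largest fall. Its log ratio was 1.18, 1.13 and 1.07 with control siRNA, 1.13, 1.00 and 1.28 with F2RL2 siRNA, 0.69, 0.76 and 0.81 with LGR4 siRNA and -0.56, -0.44 and -0.80 with GPR124 siRNA. The GPR124 arrays are the only ones below 0 for it, and the LGR4 arrays lie under the control arrays without overlap.

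At the other end, the 7 members that kept a log ratio of 1 or more had control means of at least 2.42 and kept 22.5% to 56.3% of them. In 3 of these, all 3 GPR124 arrays were at 1 or more. The highest GPR124 mean, 1.81, belonged to a member with control values of 3.25, 3.15 and 3.23 and GPR124 values of 1.996, 1.968 and 1.46. It stayed well induced, and its difference of -1.40 (SE 0.12, limma adjusted p = 2.72e-06) was close to the member median. Across the 75 members, the control mean and the GPR124 difference correlated at r = -0.86, which describes probes of the same arrays and includes the control mean on both sides.

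F2RL2 siRNA left the member median at 1.27, 1.29 and 1.35 on its 3 arrays. The difference from control ran from -2.24 to 0.69 with a median of 0.046, and 50 members were above 0. By limma, 8 members were called (17.9% of all probes), 4 of them higher (10.0%) and 4 lower (7.95%). Only 2 were called with the processed signals (13.3% of all probes). Leaving out control replicate 1 gave 5 (12.5%), as did leaving out F2RL2 replicate 3 (12.6%). The arrays of slide 1 alone, where the lone F2RL2 array is assumed to vary like the controls, gave 19 (25.4%). The arrays did not overlap with control in 15 members that were higher (20.9% of all probes) and 10 that were lower (17.0%). The 4 higher members had differences of 0.27 to 0.69. One of them was 1.53, 1.56 and 1.46 with control siRNA, 1.96, 1.89 and 1.96 with F2RL2 siRNA, 1.39, 1.41 and 1.34 with LGR4 siRNA and 0.13, 0.23 and 0.032 with GPR124 siRNA. Its F2RL2 arrays lie above all others, with a difference of 0.42 from control (limma adjusted p = 0.000989). Of the 4 lower members, 3 are those with Cy3 signal lower by at least 1 under every targeting siRNA, at differences of -2.24, -2.18 and -0.96. The other lower member changed by -0.34 (limma adjusted p = 0.0198). It was 2.29, 2.15 and 1.997 with control siRNA and 1.88, 1.76 and 1.80 with F2RL2 siRNA.

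LGR4 siRNA gave member medians of 1.23, 1.18 and 1.15. The difference from control ran from -2.47 to 0.32 with a median of -0.12, and 21 members were above 0. By limma, 16 members were called (23.1% of all probes), all of them lower, where 9.37% of all probes were called lower. None, or 0, were called higher, where 13.7% of all probes were, and 2 were higher at an unadjusted p under 0.05. With median centring in place of loess, 3 of the 75 were called (11.1% of all probes), and with slide as a block 4 (8.38%). Leaving out control replicate 1 gave 10 (17.4%), control replicate 2 gave 9 (17.9%) and LGR4 replicate 3 gave 10 (18.2%). All LGR4 arrays lay under all control arrays in 28 members (18.9% of all probes) and above them in 4 (24.8%). Apart from the 3 members lower in Cy3 by at least 1 under every targeting siRNA, the called differences were small, from -0.39 to -0.28. F2RL2 and LGR4 siRNA are both compared with the same control arrays here. The F2RL2 mean was above and the LGR4 mean under control in 33 members, and the LGR4 mean was under the F2RL2 mean in 64.

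Against the GPR124 arrays, the other targeting siRNAs gave higher log ratios. F2RL2 siRNA exceeded GPR124 siRNA by a median of 1.27, with 69 members called higher by limma (19.3% of all probes), and LGR4 siRNA by a median of 1.11, with 65 called higher (18.9%). In 65 members GPR124 siRNA was called lower in all 3 comparisons, which share its arrays. Of these, 46 were called against control with neither F2RL2 nor LGR4 siRNA. The rule chose the members for this joint pattern and its share over all probes is not given, so these counts describe the choice only. LGR4 replicate 3, on the slide of the GPR124 arrays, lay above all 3 of them in 70 members (33.2% of all probes). It differed from the mean of the LGR4 arrays on slide 2 by a median of -0.036, and from the GPR124 mean by a median of 1.09. With the arrays of that slide alone, where the lone LGR4 array is assumed to vary like the GPR124 arrays, limma called 51 members higher (6.89% of all probes).

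The other induced probes also lost part of their log ratio with GPR124 siRNA, and their shares set the members in context. The 1788 others had array medians of 1.13 to 1.15 with control siRNA, 0.81 to 0.94 with F2RL2 siRNA, 0.84 to 0.87 with LGR4 siRNA and 0.46 to 0.59 with GPR124 siRNA. They kept a median of 55.4% of the control log ratio with GPR124 siRNA. Among these, the 1288 that were lowered by less than 1, or were higher with GPR124 siRNA, kept 70.9%. The 500 that were lowered by at least 1 but lay outside the F2RL2 or LGR4 limit kept 7.55%. Those 500 had median differences of -0.75 with F2RL2 siRNA and -0.70 with LGR4 siRNA, while the members had 0.046 and -0.12. The rule sets this contrast, so it was not tested. The reference was well above background on no control array in 20.4% of the 500 and in 9.33% of members.

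AGPOA3-11649 had the highest control log ratio and the largest fall. Its log ratio was 4.52, 4.60 and 4.68 with control siRNA, 5.10, 5.37 and 5.39 with F2RL2 siRNA, 4.33, 4.27 and 4.03 with LGR4 siRNA, and 1.07, 1.18 and 0.86 with GPR124 siRNA. All 3 GPR124 arrays stand far under the others, the F2RL2 arrays are above control and the LGR4 arrays below it, each without overlap. The GPR124 difference was -3.56 (SE 0.11, limma adjusted p = 3.34e-09), an 11.8-fold lower ratio. F2RL2 siRNA raised it by 0.69 (adjusted p = 0.000903) and LGR4 siRNA differed by -0.39 (adjusted p = 0.0221), and neither passed with the processed signals (0.50, adjusted p = 0.235, and -0.24, adjusted p = 0.577). The processed Cy3 signal was 3084 to 3750 with control siRNA and 70.2 to 103 with GPR124 siRNA. The reference signal was 53.8 to 74.9 on control arrays and 13.8 to 13.9 on GPR124 arrays, where it was not well above background.

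AGPOA3-07547 was the member with the brightest signal among those named. Its log ratio was 3.40, 3.38 and 3.24 with control siRNA, 3.32, 3.06 and 3.24 with F2RL2 siRNA, 3.18, 3.37 and 3.24 with LGR4 siRNA, and 0.060, 0.39 and -0.0074 with GPR124 siRNA. The 9 arrays of the other groups overlap and the GPR124 arrays lie apart near 0. The GPR124 difference was -3.19 (SE 0.11, limma adjusted p = 3.34e-09), a 9.15-fold lower ratio. The differences with F2RL2 siRNA (-0.13, adjusted p = 0.455) and LGR4 siRNA (-0.07, adjusted p = 0.686) did not pass. Its processed Cy3 signal was 391994 to 445287 with control siRNA and 79255 to 93951 with GPR124 siRNA. Its reference signal moved the other way, from 39727 to 40497 on control arrays to 65079 to 73153 on GPR124 arrays, and after normalization the Cy3 level changed by -1.95 and the Cy5 level by 1.24. The labels give the same kind of reference RNA for all arrays, and both channels thus add to this log ratio difference.

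The fifth and ninth largest falls kept to the pattern of the rule on both scales. The fifth member was 2.94, 2.90 and 2.84 with control siRNA, 2.90, 2.67 and 2.87 with F2RL2 siRNA, 3.07, 3.15 and 3.22 with LGR4 siRNA, and 1.10, 1.28 and 0.81 with GPR124 siRNA. Its GPR124 arrays are far below the others, the LGR4 arrays are slightly above control, and the difference of -1.83 (SE 0.11, limma adjusted p = 1.38e-07) left 36.8% of the control log ratio. The ninth was 1.15, 1.196 and 1.12 with control siRNA, 1.37, 1.496 and 1.25 with F2RL2 siRNA, 1.47, 1.27 and 1.21 with LGR4 siRNA, and -0.36, -0.58 and -0.75 with GPR124 siRNA. Both other targeting siRNAs lie above control for it, although neither difference passed (limma adjusted p = 0.18 and 0.311), and the GPR124 arrays lie under the reference. A member in the middle of the order was 1.32, 1.34 and 1.31 with control siRNA, 1.64, 1.21 and 1.45 with F2RL2 siRNA, 1.22, 1.29 and 1.46 with LGR4 siRNA, and -0.34, 0.40 and 0.076 with GPR124 siRNA. Its GPR124 arrays spread more widely than the others but do not overlap with them (difference -1.28, SE 0.16, limma adjusted p = 4.38e-05). The member with the smallest fall was 0.45, 0.43 and 0.38 with control siRNA and 0.39, 0.43 and 0.27 with GPR124 siRNA. Its arrays overlap, it was well above background in Cy3 on no GPR124 array, and the difference of -0.06 did not pass (limma adjusted p = 0.593).

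In AGPOA3-01794 and AGPOA3-01806 both channels were low on all arrays but the control arrays. AGPOA3-01794 had log ratios of 3.32, 3.35 and 3.47 with control siRNA, 0.87, 1.37 and 1.34 with F2RL2 siRNA, 1.16, 1.18 and 0.62 with LGR4 siRNA, and 0.30, 0.057 and -0.033 with GPR124 siRNA. The control arrays stand above all others, and the GPR124 arrays below all others. The differences were -3.27 with GPR124 siRNA (SE 0.16, limma adjusted p = 3.96e-08), -2.18 with F2RL2 siRNA (adjusted p = 3.53e-06) and -2.39 with LGR4 siRNA (adjusted p = 5.75e-07). On the scale of the rule the same differences were -4.12, -0.14 and -0.19. Its Cy3 signal was 1930 to 2967 with control siRNA, 110 to 180 with F2RL2 siRNA, 64.2 to 182 with LGR4 siRNA and 14.3 to 21.0 with GPR124 siRNA. None of the 3 GPR124 arrays measured it well above background. Its Cy3 level was at least 14.1-fold lower there than with control siRNA, a bound set as for all dim spots from the lowest signal well above background or the spot itself, whichever was higher.

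The reference spot of AGPOA3-01794 was 86.9 to 159 on control arrays but 6.30 to 11.7 on F2RL2 arrays, 3.88 to 10.6 on LGR4 arrays and 13.6 to 24.4 on GPR124 arrays. It was well above background on the control arrays and on no other. With F2RL2 and LGR4 siRNA both channels were thus lower than on the control arrays, and the ratio of processed signals was close to control.

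AGPOA3-01806 had the same kind of values. Its log ratios were 3.68, 3.80 and 3.80 with control siRNA, 1.09, 1.45 and 2.02 with F2RL2 siRNA, 1.40, 1.36 and 1.11 with LGR4 siRNA, and 0.52, 0.67 and 0.54 with GPR124 siRNA. No targeting array reaches the control arrays. The differences were -3.18 with GPR124 siRNA (SE 0.18, limma adjusted p = 7.53e-08), -2.24 with F2RL2 siRNA (adjusted p = 5.03e-06) and -2.47 with LGR4 siRNA (adjusted p = 9.07e-07), against -3.29, 0.28 and 0.14 on the scale of the rule, where the F2RL2 and LGR4 differences turn direction. Its Cy3 signal was 1834 to 2879 with control siRNA, 93.3 to 162 with F2RL2 siRNA, 57.1 to 160 with LGR4 siRNA and 17.2 to 26.5 with GPR124 siRNA, where 1 of 3 arrays measured it well above background. Its reference spot was 77.3 to 143 on control arrays, and 3.58 to 6.40, 3.09 to 5.98 and 8.03 to 13.2 on the others, where it was not well above background.

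A further member, with the 31st largest fall, was also lower by at least 1 in Cy3 under every targeting siRNA. Its log ratio was 1.17, 1.37 and 1.85 with control siRNA, 0.36, 0.43 and 0.73 with F2RL2 siRNA, 0.34, 0.27 and 0.57 with LGR4 siRNA, and 0.19, 0.045 and 0.13 with GPR124 siRNA. The control arrays again stand above all others, and limma called it lower with F2RL2 siRNA (adjusted p = 0.000919) and LGR4 siRNA (adjusted p = 0.000288). Its Cy3 level differed from control by -1.28 with F2RL2 siRNA, -1.37 with LGR4 siRNA and -1.71 with GPR124 siRNA. These 3 members were the only ones whose Cy3 level was lower by at least 1 with F2RL2 siRNA, and likewise with LGR4 siRNA. For them, loss was not particular to GPR124 siRNA in the transfected cells' channel.

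Over all members, the difference with GPR124 siRNA lay mostly in the transfected cells' channel. The Cy3 level differed from control by a median of -1.29, from -4.39 to 0.27, and the Cy5 level by a median of -0.033, from -1.21 to 1.24. With F2RL2 siRNA the Cy3 median was 0.10 and with LGR4 siRNA -0.15. Over all probes kept the medians were -0.013 in Cy3 and -0.030 in Cy5. Cy3 was lower by at least 1 in 48 members, and in 40 of them it also lay within 0.5 of control with F2RL2 and LGR4 siRNA, so that these 40 have the pattern of the rule in the transfected cells' signal alone. With the limma fit on Cy3 alone, 65 members were called lower with GPR124 siRNA (17.0% of all probes). In 7 members the reference differed more than Cy3, and 5 of them had higher Cy3 with GPR124 siRNA than with control, by 0.006 to 0.27. Of those 7, 6 had a control log ratio under 1, and their median log ratio difference was -0.42. In 1 member, Cy3 was higher by 0.26 and Cy5 by 1.18. Its spot on GPR124 replicate 3 was an outlier, left out of the log ratios but not of these levels. The part of the reference signal in these members' results was not tested.

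Members differed in how firmly they were measured. On the loess scale 42 of 75 still met all 4 limits. These 42 were bright, with a median control Cy3 level of 11.7, and 41 of them were well above background in Cy3 on all 3 GPR124 arrays. Their control means ran from 1.13 to 3.34 with a median of 1.64, and their GPR124 differences from -3.19 to -1.05 with a median of -1.41. All 42 were called lower by limma and had every GPR124 array under the 9 others. The limits on this scale chose them, so these counts describe and do not test. The remaining 33 were mostly dim, with a median control Cy3 level of 7.23, but their levels ran from 6.54 to 11.41. The brightest of them, AGPOA3-11649, was outside the F2RL2 limit, at a difference of 0.69. AGPOA3-01794 and AGPOA3-01806 were outside the F2RL2 limit, at -2.18 and -2.24, and outside the LGR4 limit too. Of the 33, 26 had a control log ratio under 1 and 28 a GPR124 difference above -1 on this scale. In the same set 27 were called lower, and 8 were well above background on all 3 GPR124 arrays. The background offset in this processing pulls ratios of dim spots, and differences in their Cy3 level, towards 0.

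Signal on the arrays of slide 3 was lower for members. In Cy3, 75 members were well above background on each control array, 71, 75 and 75 on the F2RL2 arrays, 74, 70 and 59 on the LGR4 arrays, and 52, 62 and 53 on the GPR124 arrays. The lowest LGR4 count is that of replicate 3, on slide 3. Among the other induced probes the shares on slide 3 were 80.1% for LGR4 replicate 3 and 75.8%, 90.9% and 77.8% for the GPR124 arrays. In 9 members Cy3 was well above background on no GPR124 array, and in 49 on all 3. For 8 of the 9 a bound on the fall can be given, between 1.02-fold and 14.1-fold with a median of 1.24-fold, so for most of them the size of the fall is hardly bounded. The count of members detected did not follow the log ratio within slide 3. LGR4 replicate 3, with 59 detected, had a member median of 1.15, and GPR124 replicate 2, with 62, had 0.22. The part of detection in the result was not tested.

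The members' spots were spread over the array, with 22, 25 and 28 in the upper, middle and lower part of its rows. Between replicate arrays the median member SD was 0.081 with control siRNA, 0.13 with F2RL2 siRNA, 0.10 with LGR4 siRNA and 0.16 with GPR124 siRNA. This spread was small beside the median GPR124 difference of -1.28, for which the members were chosen. It was not small beside the median F2RL2 and LGR4 differences of 0.046 and -0.12. No member was saturated on any array.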

How the data were processed

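RNA was measured on 12 two-colour arrays, 3 per siRNA. The scanner software was Agilent Feature Extraction 9.5.3.1, per the file headers. The deposited intensity columns used were median spot and background signals, and processed signals that the software had background-subtracted and dye-normalized, per the file headers. A deposited log10 ratio column (Cy5 over Cy3) served only to check direction. The deposited log2 value table equalled log2 of processed Cy3 over Cy5 without centring, so its scale, centring and direction are known. Its column medians were -0.25 to -0.15 on the GPR124 arrays and -0.089 to 0.15 on the others. Members were found on those values, centred on each array's median. For all other values, normexp (offset 50) and loess (1417 control spots at weight 0) were applied, outlier spots were left out, and 32346 probes well above background in 1 channel on at least 3 arrays were tested with limma 3.58.1 in R 4.3.3 (1 coefficient per group, Benjamini-Hochberg, adjusted p under 0.05), after a check on simulated data. Levels per channel were scaled between arrays after loess, with outlier spots kept. For dim spots, a bound was set on each array against the lowest signal well above background, or the spot's own signal where that was higher. Members and lists were chosen with earlier results of these data known. As a rule, the identifiers named are those of the 2 members with the highest control log ratio and the 2 with the largest falls, taking the next in order where 1 probe met both. Gene lists could not be used, since 0 of 43221 probes matched a gene. Deviations of same-numbered arrays from their group means correlated at 0.55, 0.41 and 0.23 between LGR4 and GPR124 siRNA, where the numbers were taken as pairs from the data. In the other comparisons at least 1 of the 3 correlations was 0.1 or lower.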

Additional observations from a re-analysis of the deposited data

How the results depend on the processing

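The number of members rests on the limits and the centring. It was 161 without centring (74 of the 75 among them), 144 without the background requirement, 42 with a GPR124 limit of -1.2, and 65 to 85 when 1 array was left out. With GPR124 siRNA, 66 to 69 of 75 were called lower than control without any 1 array, and 67 with a replicate block. The count was 49 with slide as a block (3.77% of all probes) and 65 with Cy3 alone (17.0%). Processed signals gave 71, where 2508 of 32344 probes were called lower, and median centring gave 69, where 2627 were. Where no share of all probes stands beside a count, it describes the members only. The median member difference was -0.99 with median centring, where all probes had a median of 0.11, against 0.36 with processed signals. The control median was 1.80 with processed signals and 0.88 with median centring (1.28 to 1.33 leaving out 1 array). With F2RL2 siRNA, 2 members were called with processed signals, 5 with median centring, 5 with slide as a block, 19 with slide 1 alone, 7 with a replicate block and 5 to 11 leaving out 1 array (5 without control replicate 1 or F2RL2 replicate 3), and the median was 0.15 with processed signals. Over all 32346 probes, F2RL2 siRNA had 2181 called with median centring, 4128 with slide as a block and 4296 with processed signals. With LGR4 siRNA, 6 members were called with processed signals (5657 of 32346 probes) and 3 with median centring (11.1% of all probes). Cy3 alone gave 10 (6020 of 32346 probes), slide as a block 4 (8.38%) and a replicate block 13. Leaving out 1 array gave 9 to 18 (10 without control replicate 1, 9 without control replicate 2, 10 without LGR4 replicate 3). The median member difference was -0.21 with processed signals and -0.16 with Cy3 alone. F2RL2 over GPR124 siRNA had medians of 1.41 (processed), 1.08 (median centring), 1.35 (Cy3 alone) and 1.196 to 1.362 (leaving out 1 array). LGR4 over GPR124 siRNA had 1.01, 0.94, 1.06, 1.09 with slide as a block or slide 3 alone, and 1.07 to 1.17. Pairing LGR4 with GPR124 arrays by number left 65 members called. AGPOA3-01806 turned direction with processed signals, to 0.28 with F2RL2 and 0.14 with LGR4 siRNA, where its reference spot was not well above background; the cause was not tested. For the 9 members not well above background in Cy3 on any GPR124 array, the level with GPR124 siRNA has only an upper bound.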
